A study of Mus musculus with 6 samples.

Results

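Transcripts of 9 genes linked to T cell unresponsiveness were compared between naive CD4 T cells that lacked and that carried Ly-6C, a lipid-anchored surface protein of the Ly6 family. The genes are the ubiquitin ligases Cblb, Cbl, Rnf128, Peli1, Itch and Nedd4, the diacylglycerol kinases Dgka and Dgkz, and the anergy factor Ndrg1. They were taken by symbol from the platform annotation, and each gene was read at its brightest probe set by the mean over all 6 arrays. All 9 were found, with 10 probe sets, among 19938 named genes on 28853 probe sets. Mice of the C57BL/6 Foxp3-GFP strain, 6 weeks old, gave the peripheral lymph nodes; their reporter marks cells that express Foxp3, the factor of regulatory T cells. Magnetic beads enriched T cells, and a flow sorter then took TCRβ+ CD4+ CD8- cells that were low for CD44 and lacked both CD25 and Foxp3, split into a Ly-6C+ and a Ly-6C- population. Each was measured on 3 Affymetrix arrays called biological replicates, and whether same-numbered arrays share mice, or whether mice were pooled, is not given in the sources used here. If replicates shared cells or animals, the p-values would measure a partly technical spread.

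T cells that meet antigen without costimulation can become anergic, a lasting state in which the T cell receptor signals poorly. Ubiquitin ligases maintain this state by tagging receptor-proximal signalling proteins for degradation or rerouting, and diacylglycerol kinases do so by converting the second messenger diacylglycerol to phosphatidic acid, which starves the Ras and protein kinase C branches of the pathway. Several of these genes are induced by calcium and NFAT signals and by the Egr factors when a T cell is made anergic.

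Array medians lay between 6.25 and 6.29, and Ly-6C-negative replicate 2 stood apart from the rest, with the lowest array weight in limma (0.456, the others from 0.751 to 1.51).

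Of the 9 genes, 0 passed the threshold of adjusted p 0.05 in limma, a linear model with a shared spread fitted to all 19938 genes, where 0.145% of genes passed (20 genes, or 0.1%, upward and 9, or 0.0451%, downward). At an unadjusted limma p under 0.05 there were 3, Dgkz, Nedd4 and Ndrg1, all with higher means in Ly-6C-negative cells, against 3.44% of all genes in that direction, 3.27% in the other and 6.71% in either. Values are log2 expression, and differences are signed so that a value above 0 means more signal in Ly-6C-negative cells. All 9 differences lay above 0, from 0.0011 for Cbl to 0.43 for Nedd4, as did 47.8% of all genes. Their median was 0.089, and the median of all genes was -0.0048. In 4 genes, Nedd4, Dgkz, Ndrg1 and Cblb, every Ly-6C-negative array lay above every Ly-6C-positive array. Such a separation in that direction occurred in 6.12% of all genes, against 6.50% in the other direction and 12.6% in either. When replicate numbers were fitted as a block, 0 of the 9 passed, where 0.206% of all genes did (0.140% higher and 0.0652% lower).

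**Figure D1:**
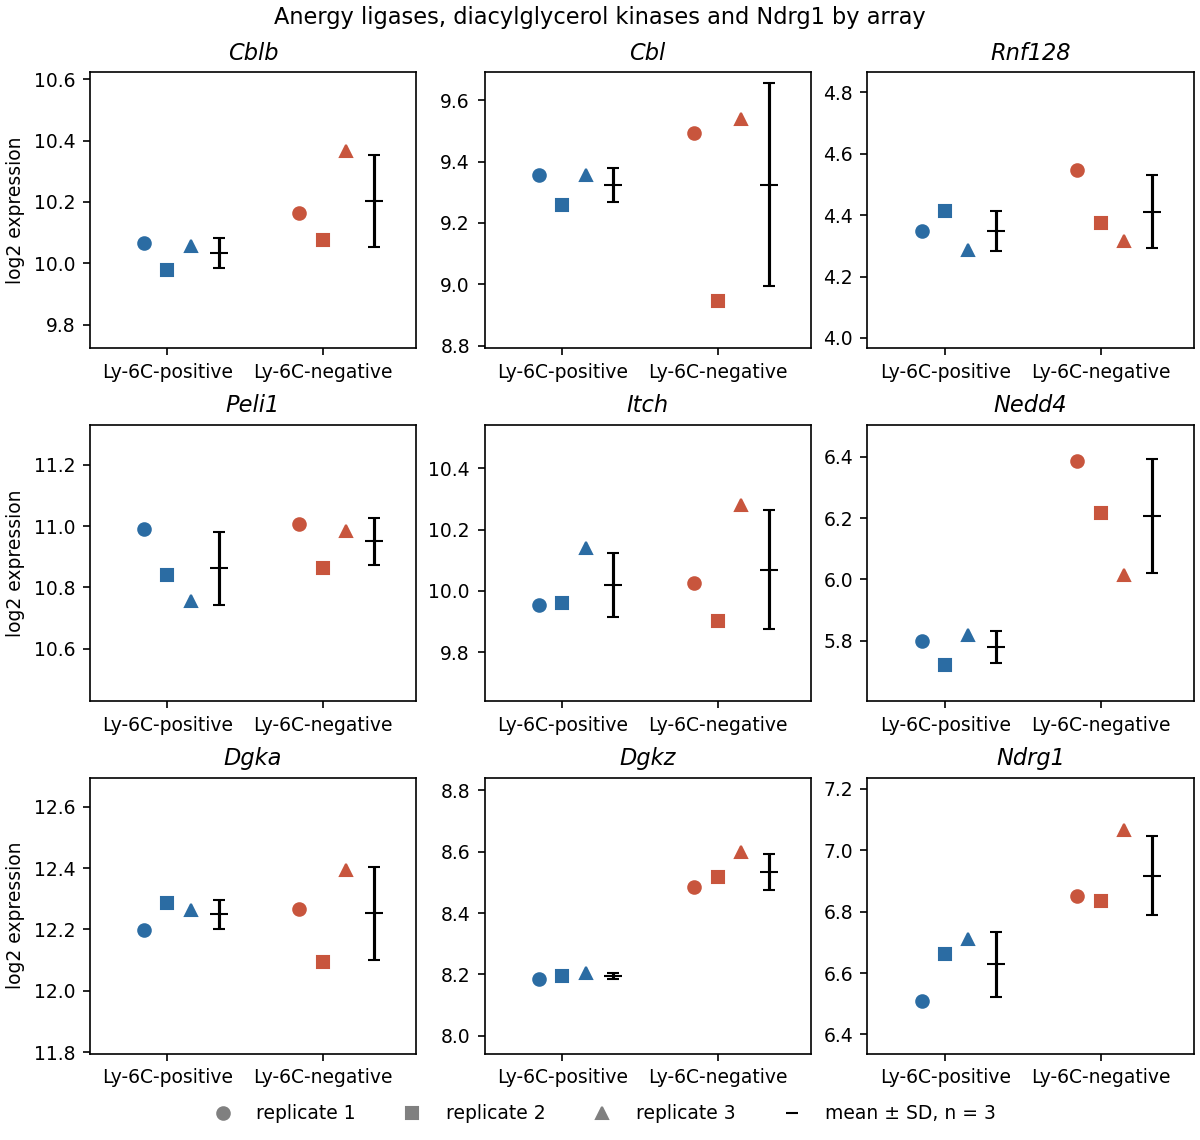
Log2 expression of each gene on each array (vertical axis, every panel spanning the same number of log2 units), for 3 Ly-6C-positive arrays in blue and 3 Ly-6C-negative arrays in red. Marker shapes give the replicate number and black bars the mean ± SD (n = 3); the groups separate in the panels of Nedd4, Dgkz, Ndrg1 and, by 0.0079, Cblb.

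Cblb encodes Cbl-b, a RING-type ligase that raises the need for CD28 costimulation and restrains phosphoinositide 3-kinase and phospholipase C signalling. On the Ly-6C-positive arrays Cblb measured 10.07, 9.98 and 10.06, and on the Ly-6C-negative arrays 10.16, 10.07 and 10.37. The groups are apart by 0.0079 only, between Ly-6C-positive replicate 1 and Ly-6C-negative replicate 2. The means were 10.03 ± 0.048 and 10.20 ± 0.15 (SD, n = 3 each), a difference of 0.17 with a 95% interval of -0.021 to 0.36 (limma adjusted p = 0.795). Without Ly-6C-negative replicate 3 the difference was 0.085.

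The promoter of Cblb is shown because NFAT and Egr factors are known inducers of anergy genes. The window holds the 250 bases before the RefSeq start in GRCm38.p6, at chr16:52031299-52031548 on the plus strand. Capitals mark matches, on either strand, to GGAAA (the NFAT core), TGANTCA (AP-1), GCGNGGGCG (Egr) or TGTTTAC (Foxo).
Cblb: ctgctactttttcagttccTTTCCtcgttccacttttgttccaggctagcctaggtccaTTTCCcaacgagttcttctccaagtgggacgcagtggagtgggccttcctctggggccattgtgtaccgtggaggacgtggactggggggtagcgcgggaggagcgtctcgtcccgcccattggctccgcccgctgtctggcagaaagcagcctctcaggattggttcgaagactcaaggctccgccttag
The Cblb window holds 2 NFAT cores and no match to the other 3 motifs. Of 32817 windows of this length in the table, 55.6% hold GGAAA, 6.75% TGANTCA, 4.70% GCGNGGGCG and 3.16% TGTTTAC. The table has windows for 7 of the 9 genes, 12 in all, of which 8 hold GGAAA, 1 holds TGANTCA, 2 hold GCGNGGGCG and 0 hold TGTTTAC. A match describes letters, and no binding was measured here.

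Cbl encodes c-Cbl, the close relative of Cbl-b that targets ZAP-70 and receptor chains. Its Ly-6C-positive values were 9.36, 9.26 and 9.35, and its Ly-6C-negative values 9.49, 8.94 and 9.54. Replicates 1 and 3 of the Ly-6C-negative group are above all Ly-6C-positive arrays and replicate 2 is below all of them. The means were 9.32 ± 0.055 and 9.32 ± 0.33 (SD, n = 3 each), and the difference of 0.0011 had a 95% interval of -0.31 to 0.31 (limma adjusted p = 0.999). Without Ly-6C-negative replicate 2 the difference of Cbl was 0.19 (limma adjusted p = 0.468), and a repeated quantile normalization turned its sign, to -0.025.

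Rnf128 encodes GRAIL, a membrane-bound RING ligase of endosomes that was named for its part in lymphocyte anergy. Rnf128 measured 4.35, 4.41 and 4.29 in Ly-6C-positive cells and 4.55, 4.37 and 4.31 in Ly-6C-negative cells, with overlapping groups. The difference was 0.063 with a 95% interval of -0.11 to 0.24 (limma adjusted p = 0.934). Its probe set lay below that of the median gene, at 6.37, and on every array below the lower quartile of all probe sets, 5.00 to 5.05. The deposited table has no detection call, so how far it lay above background is not known. Without Ly-6C-negative replicate 1, the highest array, the difference was -0.0048.

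Peli1 encodes Pellino 1, a RING-like ligase known to restrain T cell activation by acting on c-Rel. It measured 10.99, 10.84 and 10.75 in Ly-6C-positive cells and 11.01, 10.86 and 10.98 in Ly-6C-negative cells. The groups overlapped, and Peli1 was the only one of the 9 genes whose SD was smaller among Ly-6C-negative arrays, at 0.077 against 0.12. The difference was 0.089 with a 95% interval of -0.091 to 0.27 (limma adjusted p = 0.904).

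Itch and Nedd4 encode HECT ligases with WW domains, which bind PPxY motifs and accept ubiquitin on a cysteine before passing it on. Itch targets Jun proteins, and Nedd4 has been linked to the turnover of Cbl-b. Itch measured 9.95, 9.96 and 10.14 in Ly-6C-positive cells and 10.03, 9.90 and 10.28 in Ly-6C-negative cells. The Ly-6C-negative arrays held both the lowest and the highest value, and the difference was 0.051 with a 95% interval of -0.18 to 0.28 (limma adjusted p = 0.963). It was -0.055 without Ly-6C-negative replicate 3.

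Nedd4 had the largest difference of the 9 genes. On the Ly-6C-positive arrays it measured 5.80, 5.72 and 5.82, and on the Ly-6C-negative arrays 6.39, 6.22 and 6.02. The groups were apart by 0.20, with the Ly-6C-negative arrays spread over 0.37 and the Ly-6C-positive arrays over 0.096. The difference was 0.43 with a standard error of 0.094 and a 95% interval of 0.22 to 0.64, or 1.34-fold (limma adjusted p = 0.276, rank 85 of 19938 genes by p). Over 13 alternative settings the difference of Nedd4 lay between 0.34 and 0.52 and the limma adjusted p between 0.0681, without Ly-6C-negative replicate 3, and 0.831, without Ly-6C-positive replicate 2. The probe set of Nedd4 also lay below that of the median gene, but above the lower quartile of all probe sets. How far it lay above background is not known.

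RefSeq lists 2 starts for Nedd4, and both windows are shown because this gene had the largest difference and its promoters differ in composition. The first is chr9:72662081-72662330 and the second chr9:72693048-72693297, both in GRCm38.p6 on the plus strand, with capitals as for Cblb.
Nedd4, first start: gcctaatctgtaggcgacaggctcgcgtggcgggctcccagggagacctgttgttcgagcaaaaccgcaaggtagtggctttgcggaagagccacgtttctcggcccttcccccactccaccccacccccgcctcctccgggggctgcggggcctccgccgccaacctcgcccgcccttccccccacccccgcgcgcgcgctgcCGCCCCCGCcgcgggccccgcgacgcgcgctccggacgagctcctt
Nedd4, second start: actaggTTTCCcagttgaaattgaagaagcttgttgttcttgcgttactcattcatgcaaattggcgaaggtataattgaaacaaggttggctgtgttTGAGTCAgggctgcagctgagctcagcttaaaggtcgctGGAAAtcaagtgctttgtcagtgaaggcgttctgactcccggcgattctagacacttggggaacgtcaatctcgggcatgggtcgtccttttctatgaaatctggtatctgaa
The first window is 74.0% G and C and holds 1 Egr match, 46 bases before the start, and no NFAT core. The second is 46.0% G and C and holds 2 NFAT cores and the single AP-1 match among the 12 windows, 152 bases before the start. The probe set does not say which start was used.

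**Figure D2:**
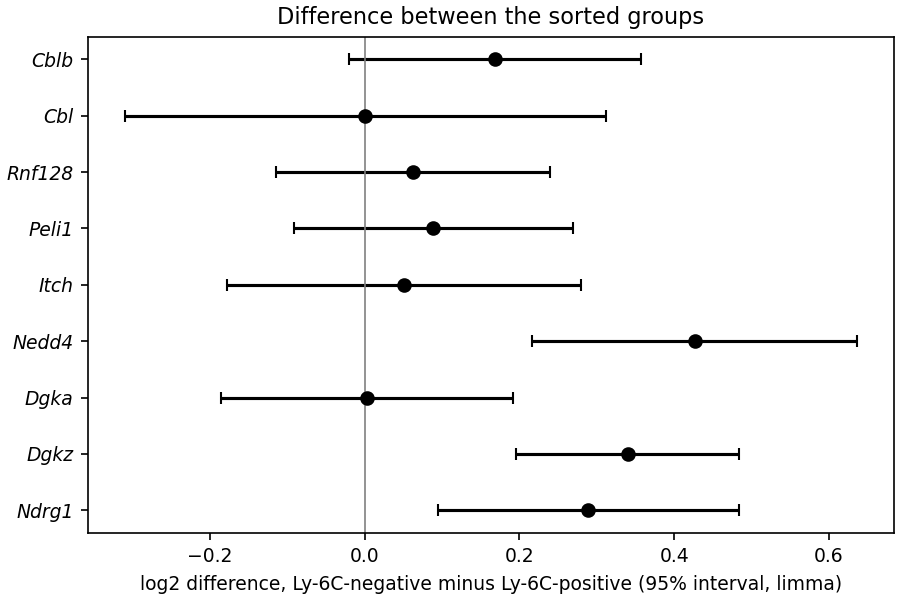
Difference of each gene (horizontal axis, log2 units, Ly-6C-negative minus Ly-6C-positive) with its 95% limma interval, from 3 arrays against 3. The intervals of Nedd4, Dgkz and Ndrg1 lie above 0 before adjustment over all genes, and those of the other 6 genes include 0.

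Dgka and Dgkz encode the diacylglycerol kinases alpha and zeta, the main forms that limit diacylglycerol in T cells. Dgka measured 12.20, 12.29 and 12.26 in Ly-6C-positive cells and 12.27, 12.10 and 12.39 in Ly-6C-negative cells. Its Ly-6C-negative arrays lay on both sides of the Ly-6C-positive ones. The difference was 0.0030 with a 95% interval of -0.19 to 0.19, which bounds the change between 0.879-fold and 1.14-fold (limma adjusted p = 0.999).

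Dgkz had the smallest p of the 9 genes. Its Ly-6C-positive values were 8.19, 8.19 and 8.20, and its Ly-6C-negative values 8.49, 8.52 and 8.60. The groups were apart by 0.28, with SDs of 0.0096 and 0.058 (n = 3 each). The difference was 0.34 with a standard error of 0.064 and a 95% interval of 0.20 to 0.48, or 1.27-fold (limma adjusted p = 0.145, rank 55 of 19938 genes by p). Over 14 alternatives the limma adjusted p of Dgkz ran from 0.0880, with array weights, to 0.762, with its probe sets averaged.

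A dimmer probe set of Dgkz did not show this difference. Probe set 10485081, described above, is matched in the platform annotation to curated and predicted Dgkz transcripts and cDNA clones, and probe set 10485115 to a single predicted transcript and a cDNA clone. The latter measured 6.86, 6.91 and 6.99 in Ly-6C-positive cells and 6.75, 6.94 and 6.88 in Ly-6C-negative cells. The groups overlapped, and the difference was -0.057 with a 95% interval of -0.23 to 0.11 (limma adjusted p = 0.944 over all probe sets). Within each array, Dgkz probe set 10485081 exceeded 10485115 by 1.33, 1.28 and 1.22 in Ly-6C-positive cells and by 1.73, 1.57 and 1.71 in Ly-6C-negative cells. That gap was wider by 0.40 in Ly-6C-negative cells, with no overlap; this gap was examined because the probe sets were seen to disagree, and it was not tested. With the mean of both probe sets, the difference of Dgkz was 0.14 (limma adjusted p = 0.762), against 0.34 at the brighter one.

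Both RefSeq starts of Dgkz are shown because its probe sets disagreed. They are chr2:91963564-91963813 and chr2:91950349-91950598, in GRCm38.p6 on the minus strand.
Dgkz, first start: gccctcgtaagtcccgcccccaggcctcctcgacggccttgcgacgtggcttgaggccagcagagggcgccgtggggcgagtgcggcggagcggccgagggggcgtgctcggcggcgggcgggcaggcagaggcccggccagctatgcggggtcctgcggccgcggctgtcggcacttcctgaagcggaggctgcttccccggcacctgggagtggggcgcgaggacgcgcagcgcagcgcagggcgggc
Dgkz, second start: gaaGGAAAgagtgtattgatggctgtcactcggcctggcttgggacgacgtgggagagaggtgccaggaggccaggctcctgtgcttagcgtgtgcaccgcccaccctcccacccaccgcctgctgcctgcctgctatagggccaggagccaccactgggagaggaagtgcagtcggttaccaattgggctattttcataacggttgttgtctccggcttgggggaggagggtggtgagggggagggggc
The first window is 77.6% G and C with no match to the 4 motifs, and the second is 62.4% G and C with 1 NFAT core, 247 bases before the start.

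Ndrg1 encodes a cytoplasmic protein induced by stress and low oxygen that has been described as an anergy factor in T cells kept without costimulation. Ndrg1 measured 6.51, 6.66 and 6.71 in Ly-6C-positive cells and 6.85, 6.83 and 7.07 in Ly-6C-negative cells. The groups were apart by 0.12, about the SD within each group (0.11 and 0.13, n = 3 each). The difference was 0.29 with a standard error of 0.087 and a 95% interval of 0.094 to 0.48, or 1.22-fold (limma adjusted p = 0.523). No alternative called it, with limma adjusted p from 0.302 to 0.945.

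The Ly-6C-negative arrays of these genes were spread more widely than the Ly-6C-positive ones. The SD was larger in the Ly-6C-negative group in 8 of the 9 genes, as in 61.6% of all genes. Ly-6C-negative replicate 2 was the lowest of its group in 6 of the 9, Cblb, Cbl, Peli1, Itch, Dgka and Ndrg1, as in 38.1% of all genes. Replicate 3 was the highest of its group in 6, Cblb, Cbl, Itch, Dgka, Dgkz and Ndrg1, as in 32.3% of all genes. Without Ly-6C-negative replicate 2, the array of lowest weight, 0 of the 9 genes passed, where 0.236% of all genes did (0.160% higher and 0.0752% lower). All 9 lay above 0, and 5 had groups that did not overlap, Cbl being added, where 13.8% of all genes did so in that direction and 13.2% in the other. Leaving out an array can only add to such a count.

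**Figure D3:**
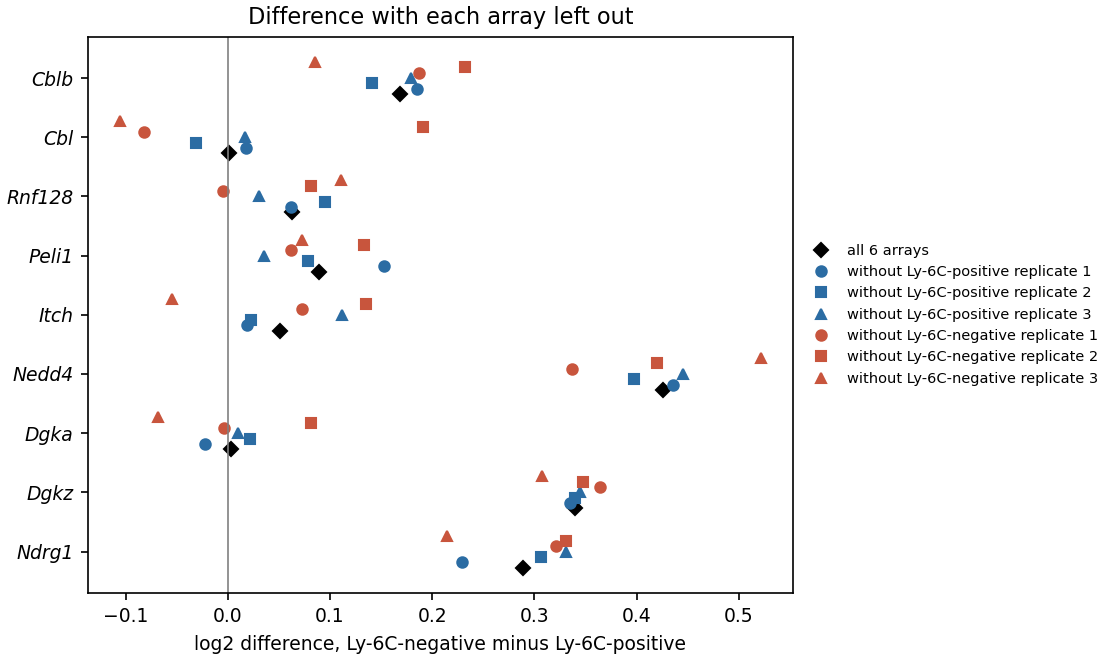
Log2 difference of each gene (horizontal axis, Ly-6C-negative minus Ly-6C-positive) with all 6 arrays (black diamonds) and with each array left out (blue, a Ly-6C-positive array, red, a Ly-6C-negative array, shape by replicate). Nedd4, Dgkz, Ndrg1, Cblb and Peli1 stay above 0 in each of these 7 fits, while Cbl, Itch, Rnf128 and Dgka cross 0 in at least 1.

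Other ubiquitin ligases and regulators of T cell signalling did not share a direction. Of 34 measured genes, 17 lay above 0, with a median difference of 0.00052, and 0 passed (limma, 4 at an unadjusted p under 0.05, 3 of them higher). Groups did not overlap in 4 genes upward and 1 downward. Of all genes, 47.8% lay above 0 and 0.145% passed. At the unadjusted p 3.44% of all genes were higher and 3.27% lower, and 6.12% and 6.50% separated in those directions. Rnf149, of the same membrane-bound ligase family as GRAIL, measured 7.62, 7.68 and 7.71 against 8.10, 7.93 and 8.05 in Ly-6C-negative cells. Its difference was 0.36 (limma adjusted p = 0.173), and it passed with array weights only (0.0484). Ubash3b, the phosphatase Sts-1 that binds Cbl proteins, differed by 0.65 (limma adjusted p = 0.312) and passed with the replicate number as a block (0.0115). Smurf2, a HECT ligase of the TGF-beta pathway, differed by 0.33 (limma adjusted p = 0.578), and Peli3, a relative of Peli1, by -0.17 (limma adjusted p = 0.653).

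Diacylglycerol kinases other than alpha and zeta had differences from -0.20 to 0.074. Of 6 measured forms 5 lay above 0, with a median of 0.051, and 0 passed (limma, 1, Dgkq, lower at an unadjusted p under 0.05). Of all genes, 47.8% lay above 0, and 3.27% were lower at that unadjusted p. Dgkb and Dgkg were not analysed here. Dgkq, the theta form, measured 6.50, 6.60 and 6.66 in Ly-6C-positive cells and 6.40, 6.24 and 6.52 in Ly-6C-negative cells, a difference of -0.20 (limma adjusted p = 0.727). The differences of Dgkk, Dgkh and Dgke were 0.071, 0.074 and 0.056. Dgkk lay below the median gene, with means of 5.09 in Ly-6C-positive and 5.16 in Ly-6C-negative cells.

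Among 25 measured genes that make diacylglycerol or respond to it, Chn2 passed and was higher in Ly-6C-negative cells. Chn2 encodes beta-chimaerin, a diacylglycerol-binding protein that turns off Rac. It measured 7.21, 7.51 and 7.29 against 8.12, 8.24 and 8.08 in Ly-6C-negative cells, a difference of 0.81 with a standard error of 0.089, or 1.76-fold (limma adjusted p = 0.0112). Its call was lost without Ly-6C-negative replicate 1 or Ly-6C-positive replicate 1 or 3, with limma adjusted p up to 0.122. Rasgrp1, the activator that links diacylglycerol to Ras, measured 10.28, 10.26 and 10.24 against 10.44, 10.40 and 10.62, a difference of 0.22 (limma adjusted p = 0.594). Prkch and Prkca, protein kinase C forms, differed by 0.23 and 0.22 (limma adjusted p = 0.641 and 0.588). In 5 of the 25 the groups did not overlap, each higher in Ly-6C-negative cells, and 14 lay above 0 with a median of 0.016. Of all genes, 6.12% separated in that direction, 47.8% lay above 0 and 0.145% passed.

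Substrates and partners of the ligases had 0 of 35 measured genes past the threshold (limma, 5 at an unadjusted p under 0.05, 3 higher and 2 lower). In this list 26 lay above 0, with a median of 0.045, and groups did not overlap in 4 genes upward and 1 downward. Of all genes, 47.8% lay above 0 and 0.145% passed. At the unadjusted p 3.44% of all genes were higher and 3.27% lower, and 6.12% and 6.50% separated in those directions. Jun, an AP-1 subunit and Itch substrate, measured 10.45, 10.43 and 10.29 in Ly-6C-positive cells and 9.98, 10.30 and 9.97 in Ly-6C-negative cells, a difference of -0.30 (limma adjusted p = 0.577). Notch1, a receptor that Itch ubiquitinates, differed by 0.21 (limma adjusted p = 0.577), Mdm2, itself a ligase, by 0.23 (limma adjusted p = 0.617), and Pik3r2, a regulatory subunit of phosphoinositide 3-kinase, by 0.22 (limma adjusted p = 0.711).

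Genes linked to anergy outside the ligase and kinase families held 2 of 31 past the threshold, Ctla4 and Izumo1r, both higher in Ly-6C-negative cells. The list had 28 genes above 0, a median of 0.077 and 8 genes whose groups did not overlap, each higher in Ly-6C-negative cells. Of all genes, 47.8% lay above 0, 6.12% separated in that direction and 0.145% passed. The list was chosen with earlier results of these data known, so its counts are a description. Ctla4, an inhibitory receptor, differed by 1.34 and Izumo1r, folate receptor 4, by 1.03 (limma adjusted p = 0.0121 and 0.00200). The call of Ctla4 was lost in 3 of 14 alternatives, without Ly-6C-negative replicate 1 or Ly-6C-positive replicate 2 or 3, with limma adjusted p up to 0.140. The receptor gene Cd5 differed by 0.41 and Nr4a1, an early gene of T cell receptor signals, by 0.34, and neither passed (limma adjusted p = 0.139 and 0.256). Cd5 passed in 2 of 14 alternatives, with array weights and without Ly-6C-negative replicate 2, at a lowest limma adjusted p of 0.0311. Egr2 and Egr3, named after their values were seen because their motif was searched above, differed by 0.057 and 0.068. Nt5e, the ectoenzyme CD73, differed by 0.73 (limma adjusted p = 0.427) and passed with the replicate number as a block (0.00602). Izumo1r passed in 14 of 14 alternatives, and earlier results of these data had already shown both called genes.

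Of 7 relatives and regulators of Ndrg1, 0 passed (limma, 0 at an unadjusted p under 0.05) and 5 lay above 0, with a median of 0.077. Of all genes, 47.8% lay above 0. Hif1a, the low-oxygen factor known to induce Ndrg1, differed by 0.18, Ndrg2 by 0.12, Mycn, a known repressor of Ndrg1, by -0.12, and Sgk3, a kinase of the family that phosphorylates Ndrg1, by 0.090. Their adjusted p in limma lay between 0.842 and 0.902.

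**Figure D4:**
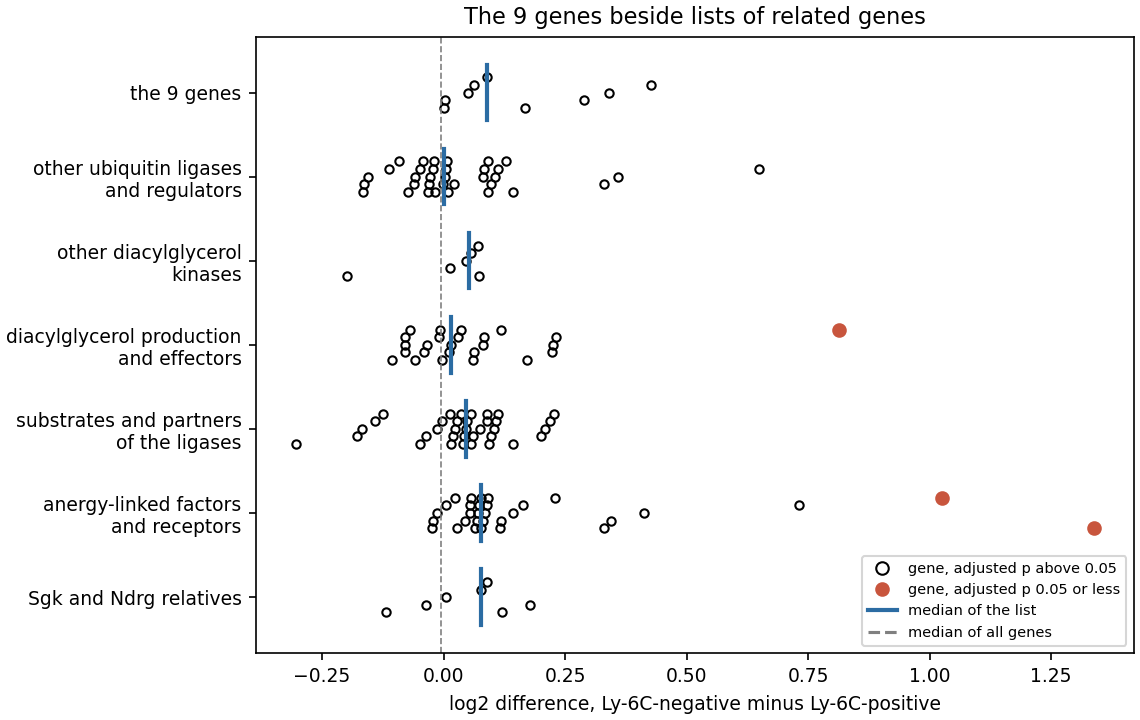
Log2 difference (horizontal axis, Ly-6C-negative minus Ly-6C-positive) of each gene, by list, with the list's median as a blue bar and the median of all genes as a dashed line. Filled red points are the 3 genes past a limma adjusted p of 0.05, Chn2, Izumo1r and Ctla4, and vertical offsets within a list only separate the points.

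Of 12 measured genes of the sort and of T cell identity, 0 passed (limma, Cd44 and Cd28 at an unadjusted p under 0.05). Cd4, Cd3e, Cd3d and Cd3g differed by -0.089, -0.016, -0.0067 and -0.0040, Cd8a by -0.029, Cd8b1 by -0.12, Il2ra, the CD25 gene, by 0.12 and Foxp3 by 0.013. Ccr7, Il7r and Cd28 differed by 0.017, -0.042 and 0.16, and Cd44 by -0.25. The groups did not overlap for Cd28, upward, and for Cd44, downward, as for 6.12% and 6.50% of all genes in those directions. Markers of regulatory T cells moved with the groups in part. Of 8 markers 3 passed and were higher in Ly-6C-negative cells, Ctla4 (also counted above among the anergy-linked genes), Ikzf2 and Gpr83. The mean log2 level over all 8 was 6.76 to 6.82 per array in Ly-6C-positive and 7.06 to 7.29 in Ly-6C-negative cells. The 3 that passed had the largest differences, 1.34, 0.63 and 0.56. Nrp1, Il2ra and Lrrc32 differed by 0.33, 0.12 and 0.10, and Tnfrsf18 by -0.012. Foxp3 itself had a 95% interval of -0.21 to 0.23. Of 9 NK cell markers 2 passed and were lower, Klrd1 and Gzma, and the mean over all 9 was 5.27 to 5.29 per array against 4.90 to 5.03. Klrd1, Prf1 and Gzma carried this shift, with differences of -1.50, -0.70 and -0.69. The other 6, Ncr1, Klrk1, Klra8, Klrb1c, Klre1 and Gzmb, overlapped between the groups and differed by -0.054 to 0.11, the last 3 above 0. Group means of these 6 ran from 3.56 for Klre1 to 4.91 for Gzmb, below the lower quartile of all probe sets. How far they lay above background is not known, so their small differences say little. Klrd1 had means of 8.53 in Ly-6C-positive and 7.03 in Ly-6C-negative cells. Markers of B cells (7 measured), CD8 T cells (4) and myeloid cells (10) had 0 past the threshold (limma, 0, 2 and 2 at an unadjusted p under 0.05). In the CD8 and the myeloid list 1 of these was higher and 1 lower. Groups did not overlap in 2 B cell markers, both lower in Ly-6C-negative cells, and in 1 CD8 and 1 myeloid marker, both higher. Of all genes, 6.50% separated downward and 6.12% upward, and 6.71% had such an unadjusted p. The mean levels of the B cell, CD8 and myeloid lists per array spanned 5.00 to 5.08, 6.73 to 6.84 and 5.06 to 5.14 over both groups. No marker is listed at 0, as the lowest value of the table is 2.47. The calls of Ikzf2, Gpr83, Klrd1 and Gzma were each lost in 4 to 6 alternatives, with limma adjusted p up to 0.290. In bulk samples fewer cells of a type and less RNA per cell cannot be told apart, and the part of these markers in the differences of the 9 genes was not tested.

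The genes whose profile was most like that of Dgkz over the 6 arrays were Git2, Zfp318 and Map4k4, with Pearson r of 0.996, 0.993 and 0.993. For Nedd4 they were Taf7, Nudt4 and Gsta4, with r of 0.993, 0.990 and 0.989. Gsta4 differed by 0.82 between the groups (limma adjusted p = 0.0634, and 0.0384 with replicate numbers as a block) and Taf7 by 0.086. With 6 arrays that share the same groups, r above 0.95 was reached with Dgkz by 70 and with Nedd4 by 53 of 19937 genes, so these likenesses are a description.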

How the data were processed

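Log2 expression of 28853 probe sets was taken as the authors deposited it. The tools that the submitters' processing notes name are Partek and RMA, with no version. RMA makes the arrays' distributions alike, so a change shared by all transcripts cannot be seen; array medians lay between 6.25 and 6.29. Per the labels' protocols, 50 ng of total RNA was amplified and 5 µg of cDNA labelled with biotin. The number of arrays, 3 in each group, limits the precision.

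In the platform annotation 21789 probe sets had 1 symbol, 1621 several and 5443 none listed, and the last 2 kinds were left out. Of those with 1 symbol 21698 matched a current gene by Entrez ID. Differences were tested in limma 3.58.1 under R 4.3.3 (lmFit, eBayes, 2-sided, no covariate), with Benjamini-Hochberg adjustment over 19938 genes. The fit was tested on simulated data. Figures used matplotlib 3.10.9.

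Same-numbered arrays deviated together from their group means, with r of 0.129, 0.128 and 0.107 across genes, all above the bound of 0.1. By that bound the numbers pair the arrays, although the labels do not say so. The main fit did not use this pairing, and a fit blocked on the number was run as an alternative. With the block, the limma adjusted p was 0.184 for Nedd4, 0.191 for Dgkz and 0.346 for Ndrg1. In the main fit it was 0.276, 0.145 and 0.523.

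The genes named are the 9, the up to 4 genes of smallest p in each of 6 lists of related genes, any called gene of a list, genes of the sort, and the 3 most similar profiles for Dgkz and Nedd4. Nt5e, Egr2, Egr3, Prf1 and the called markers Ikzf2, Gpr83, Klrd1 and Gzma fall outside this rule. So do the other NK markers and Nrp1, Lrrc32 and Tnfrsf18. All of these were chosen after their values were seen. The 9 genes, the lists, tests and alternatives were chosen with earlier results of these data known. Alternatives were other normalizations, probe set choices, a filter on dim genes, array weights, a trended and robust eBayes, a threshold of adjusted p 0.1 and leaving out each array. Promoter windows are from RefSeq.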

Additional observations from a re-analysis of the deposited data

How the results depend on the processing

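None of the 15 alternatives brought any of the 9 genes past its threshold. Of 124 differences of single genes under the alternatives, 115 kept their direction and 9 turned. Many of the 115 could not have turned, so that count does not measure robustness. The replicate block, the trended and robust eBayes, the filter on dim genes and the fit with probe sets kept separate repeat the main estimates. Averaging probe sets changes only that of Dgkz. Subtracting array medians raised the differences of all 9 genes, which already lay above 0. Those that turned belong to genes whose differences were small: Cbl, at -0.025 after a repeated quantile normalization and from -0.11 to 0.19 with an array left out, Dgka from -0.068 to 0.081, Itch from -0.055 to 0.13 and Rnf128 from -0.0048 to 0.11. The cause was not tested. Without dim genes Nedd4 and Rnf128 were not tested. The count of the 9 whose groups do not overlap, an alternative added after seeing the data, was 4 with array medians subtracted, where 8.95% of all genes separated in that direction, and 4 to 5 with an array left out, where 9.56% to 13.8% did. Leaving out an array cannot make separate groups overlap, so that count could not fall below 4. Peli1 was added without Ly-6C-positive replicate 1 (9.75% of all genes) and Cbl without Ly-6C-negative replicate 2.

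The count over all genes, 29, was 54 with array weights and 45 with every probe set as its own feature, and 5 to 47 with an array left out. With the replicate number as a block 41 genes passed, 0 of the 9 among them. In that fit, and with array weights, 1 of the other ubiquitin ligases and regulators passed, Ubash3b and Rnf149 respectively. The block also added Nt5e, Gsta4 (limma adjusted p = 0.0384) and, among the NK markers, Prf1 (limma adjusted p = 0.00848), which passed with array weights too. The block changed no other call among the genes named. With an array left out, 0 to 1 of the diacylglycerol genes and 1 to 3 of the other anergy-linked genes passed. Which probe set stands for Dgkz sets the size and the sign of its difference. It was 0.34 at the brighter probe set, -0.057 at the dimmer one and 0.14 as a mean of both.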
